A study of Macrostomum lignano with 16 samples.

Results

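Whole-worm RNA of Macrostomum lignano was compared across 3 constant group sizes, using 12 of the 16 libraries of the series. Libraries were chosen by their labelled group alone: 4 isolated (1 worm), 4 paired (2 worms) and 4 octet (8 worms), each kept for 64 days. The other 4 libraries, from joined worms that met a partner only for the last 24 h, entered only an alternative fit and a description. All worms were adults of strain DV1, aged 66 to 69 days, fed on the diatom Nitzschia curvilineata in artificial sea water at 20 °C. Each library is a replicate pool of worms, so every p-value measures the spread between pools and not between individuals. Group size is the sole treatment that the labels give.

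Macrostomum lignano is a free-living flatworm in which each adult is male and female at the same time, with paired testes, paired ovaries and glands that add seminal fluid. Mating is frequent and reciprocal where partners are present, and isolated adults have no mate to give sperm to or receive it from. Group size has been used in this species to vary the number of mates, because with more mates an animal's sperm compete with more sperm of others, and testis size is known to be larger in larger groups. The question of a trend is whether a transcript changes by the same step at each doubling of the group, or by unequal steps.

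The deposited table lists transcripts of a transcriptome assembly by identifier, such as RNA815_38273, and pairs none with a gene name. Transcripts are therefore described by identifier and by shape of response, no role is given to any of them, and the whole-worm tissue label was not checked against marker genes. Identifiers that share a number and differ after the dot are treated as related transcripts, whose reads were divided by estimation and whose levels depend on each other. In whole worms, fewer cells of a type and less RNA per cell cannot be told apart, and this holds for every change below.

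Libraries held 7302416 to 10112451 estimated reads. Mean depth was 8003000 ± 505500 reads in isolated, 8527000 ± 1005000 in paired and 8386000 ± 1153000 in octet libraries (SD, n = 4 each). Its slope on log2 group size was 99360 reads per doubling (exact permutation test over 34650 assignments, two-sided p = 0.646). The share of the most abundant transcript, RNA815_80.1, changed by -1.97 percentage points per doubling (exact permutation p = 0.0254, 0.0576 after adjustment over 3 measures). Transcripts detected by 1 read or more changed by -719 per doubling (exact permutation p = 0.0384, adjusted 0.0576). Neither of these passed the adjusted threshold, and their part in the results was not tested except by leaving RNA815_80.1 out, which gave 7756 slope calls and 106 departure calls.

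Each of the 38462 tested transcripts was described by 2 contrasts of the group means. The slope is the change in log2 CPM (a transcript's reads scaled to a common library size, the usual CPM unit) for each doubling of the group, with log2 group sizes of 0, 1 and 3. The departure is the distance, in log2 CPM, of the paired mean from the straight line drawn between the isolated and octet means. On that line the paired level lies at 33.3% of the way from isolated to octet. A transcript already at the octet level in pairs departs by 66.7% of its whole change, while one still at the isolated level in pairs departs by 33.3% of it. The test of departure therefore has more room on the octet side, and early changes are easier to call than late ones. Early and late refer here to log2 CPM, not to CPM.

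Group size went with broad change. The slope passed the test in 7760 transcripts (20.2%), of which 4531 (11.8%) rose and 3229 (8.4%) fell with group size (limma-voom, Benjamini-Hochberg adjusted p under 0.05). At an unadjusted p under 0.05 the share was 35.1%. The median slope was 0.27 among the rises and -0.31 among the falls, against -0.01 over all tested transcripts. A fitted change of over 2-fold from 1 to 8 worms was found in 1323 rises and 1346 falls, and of over 8-fold in 95 rises and 13 falls. The group means stood in order (isolated, paired, octet or the reverse) in 94% of the rises and 91.7% of the falls, against 55.9% of all tested transcripts, though the slope itself favours ordered means. An F-test for any difference among the 3 groups called 4730 transcripts (12.3%), and 4598 of these were slope calls.

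The transcripts that rose held 20.5% ± 1.72 of the reads in isolated, 26.2% ± 2.26 in paired and 34.4% ± 1.79 in octet libraries (SD, n = 4 each). The transcripts that fell held 14.6% ± 1.33, 11.1% ± 3.16 and 6.87% ± 1.86 in the same groups. These shares describe transcripts chosen on the same libraries and carry no test. Rises were concentrated among abundant transcripts: of the 12821 most abundant, 21.9% rose and 10.3% fell, while of the 12821 least abundant 3.94% rose and 5.61% fell. The median half-width of the 95% interval of a slope was 0.12 in the most and 0.24 in the least abundant of 3 equal parts, so small slopes of scarce transcripts were harder to detect. With upper-quartile scaling the split was 3987 rising and 3768 falling.

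The size of the slope count depended on single pools, the falls most. Leaving out octet replicate 1 gave 4330 slope calls, octet replicate 4 gave 4522, isolated replicate 2 gave 5078 and octet replicate 2 gave 5165. Without isolated replicate 4 the falls numbered 1966, and without octet replicate 4 they numbered 1288. Without paired replicate 4 there were 10035 slope calls.

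**Figure D1:**
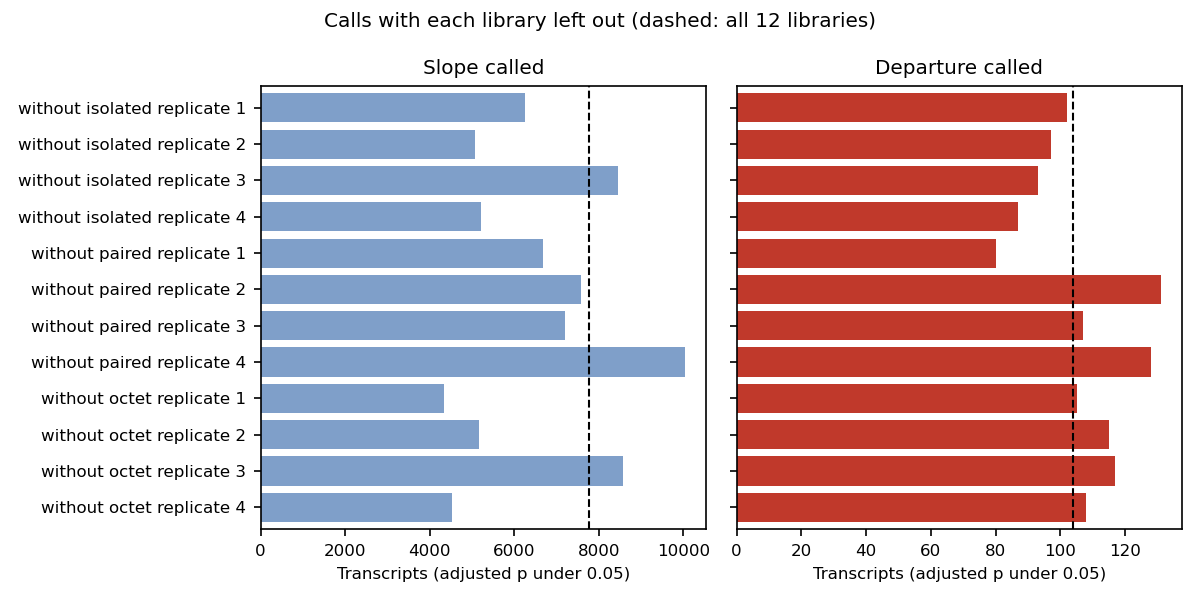
Number of transcripts called for the slope (left) and for the departure from the line (right), in bars, when each of the 12 libraries is left out in turn; the dashed line is the count with all 12. Slope calls run from 4330 to 10035, while departure calls run from 80 to 131.

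Departures from the line were few and ran one way. The departure passed the test in 104 transcripts (0.27%), with the paired level above the line in 87 (0.226%) and below it in 17 (0.0442%). Related transcripts are among them: the calls cover 81 distinct numbers, and summing reads over shared numbers gave 78 calls among 33785 tested. Of the 104, 103 also passed the slope test, and in all 103 the paired level lay on the octet side of the line: 86 rose early and 17 fell early. No transcript with a slope call had a called departure toward the isolated level (limma-voom). At an unadjusted p under 0.05 there were 94 of these among the 7760 slope calls, against 777 toward the octet level, and limma-trend also called 0. A fit with a quality weight per library called 5. Over all tested transcripts 2508 (6.52%) had an unadjusted p under 0.05 for the departure.

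A departure that misses the threshold does not show a straight line. The median half-width of its 95% interval was 0.45 log2 units over all tested transcripts and 0.36 among the rises, whose median departure was 0.12. For most slope calls the shape was therefore not resolved with 4 pools a group. The paired mean lay on the octet side of the line in 70% of the rises and 55.8% of the falls, against 54.5% of all tested transcripts. Without paired replicate 4 the shares were 57.3% of the rises and 33.2% of the falls called in that fit, and with a quality weight per library they were 56% and 43.8%.

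**Figure D2:**
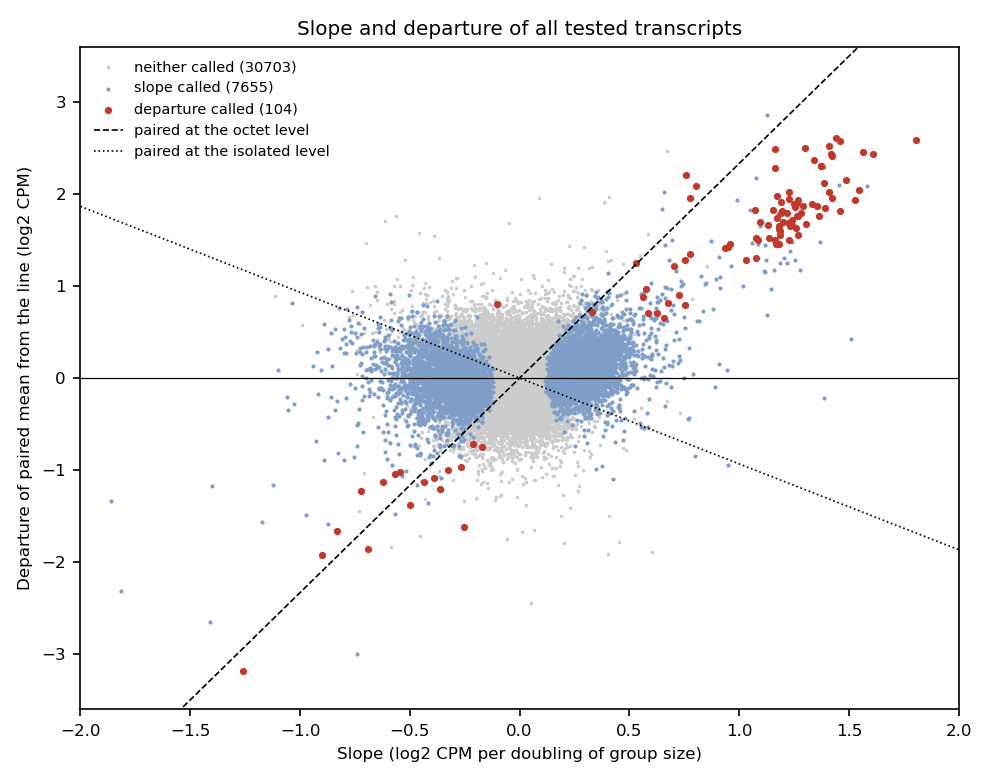
Slope (x axis, log2 CPM per doubling of group size) against departure of the paired mean from the line (y axis, log2 CPM) for all tested transcripts but 1 outside the axes; grey points passed neither test, blue points the slope test and red points the departure test. Most red points of the rises lie between the horizontal line of no departure and the dashed line on which the paired level equals the octet level, the red points of the falls lie near or past the dashed line, and none lies near the dotted line on which the paired level equals the isolated level.

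Among the rises, the early shape on the log2 scale grew with steepness. Of the 95 rises of over 8-fold, 67 (70.5%) had a called departure, against 1 of 3208 rises under 2-fold. The paired level of the 95 steepest rises stood at a median of 75.4% of the way from isolated to octet (quartiles 71.8% and 79.2%). Their median step was 3.09 log2 units from 1 to 2 worms and 0.51 per doubling from 2 to 8 worms. Rises of 4- to 8-fold stood at 66.5%, rises of 2- to 4-fold at 51.4% and rises under 2-fold at 43.9%. The same percent is a larger log2 distance in a steeper change, so the share called is bound to grow with steepness. The median percent is not bound in that way, but it is taken in log2 CPM. There, a fixed position in CPM gives a higher percent in a steeper rise and a lower one in a steeper fall. How far this shapes the order of the medians was not tested.

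The falls showed no such order. Falls under 2-fold stood at a median of 40.7% of the way in pairs, falls of 2- to 4-fold at 31.8% and falls of 4- to 8-fold at 28.2%, on either side of the 33.3% of the line. The 13 falls of over 8-fold stood at 56.2%, and only 1 of them had a mean log2 CPM of at least 3. Among the 95 rises of over 8-fold, 60 reached that abundance. With all libraries the median departure toward the octet level was 0.12 among rises and 0.03 among falls. Among the falls called in each alternative fit its direction turned without paired replicate 4 (-0.12), without paired replicate 3 (-0.03), without octet replicate 3 (-0.04) and with a weight per library (-0.03), so the falls have no settled side of the line. Among rises it stayed toward the octet level, at 0.05 without paired replicate 4 and 0.04 with the weights. For the 95 steepest rises it was 1.76 with all libraries and 1.58 without paired replicate 4.

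**Figure D3:**
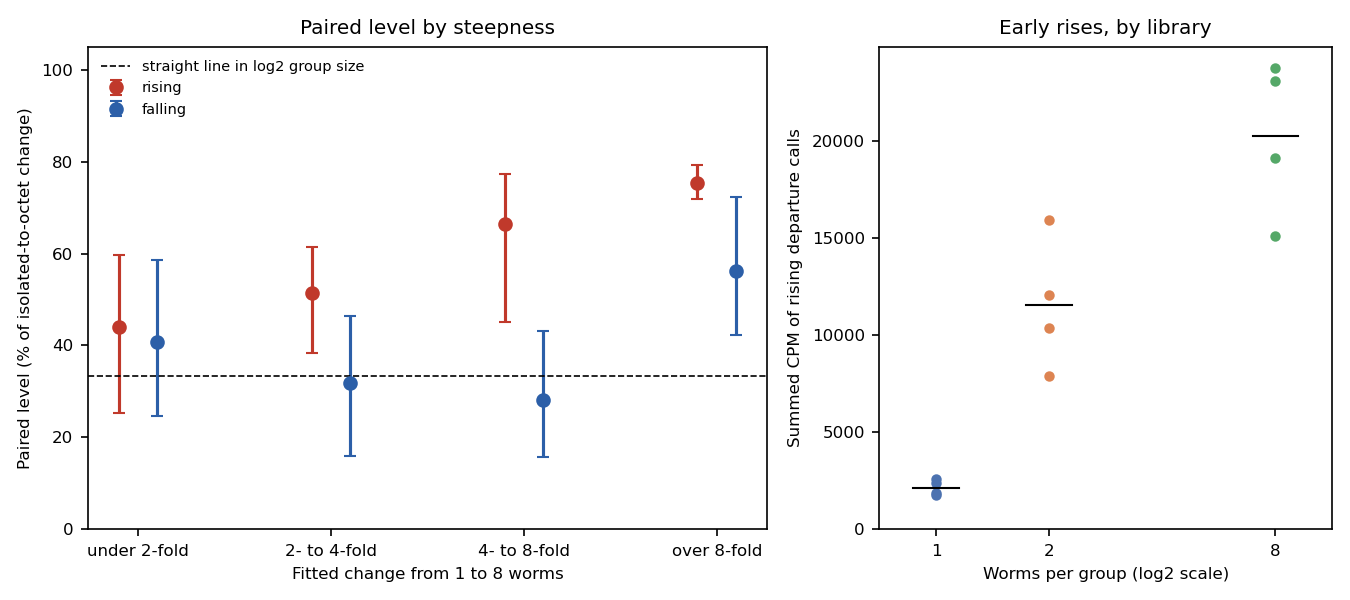
Left, level of paired worms as a percent of the fitted isolated-to-octet change (y axis) for slope calls grouped by the fitted change from 1 to 8 worms; points are medians, bars span the quartiles over transcripts, and the dashed line at 33.3% is a straight line in log2 group size. Right, summed CPM of the 86 early rises in each library (points) with group means (bars) at 1, 2 and 8 worms; paired libraries lie between 7891 and 15930, above all isolated libraries at 1745 to 2563.

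The steepest of all called rises was RNA815_9549.4. Its level was 1.37, 1.16, 0.591 and 0.274 CPM in isolated libraries 1 to 4, 24.6, 12.7, 14.0 and 31.4 CPM in paired libraries, and 65.4, 60.8, 35.2 and 45.8 CPM in octet libraries. No library of one group overlapped with another group, and the isolated values rest on only 2 to 11 reads each. The slope was 1.81 log2 units per doubling with a standard error of 0.17 (limma adjusted p = 8.47e-07), and the paired mean lay 2.59 above the line with a standard error of 0.41 (adjusted p = 0.0031). The first partner went with a step of 4.58 log2 units, and each later doubling with 0.70. Its number, RNA815_9549, covers 6 transcripts, of which 5 were tested, and all 5 passed both tests.

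RNA815_38273 showed the same profile without related transcripts. It stood at 2.12, 2.84, 1.18 and 1.64 CPM in isolated, 28.3, 17.7, 20.9 and 39.5 CPM in paired and 73.5, 89.6, 43.2 and 58.4 CPM in octet libraries. The groups were again fully separated, with the lowest octet library just above the highest paired one. The slope was 1.54 with a standard error of 0.11 (limma adjusted p = 3.78e-08) and the departure 2.04 with a standard error of 0.29 (adjusted p = 0.00104).

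RNA815_324.1 bent most among the rises, with a departure of 2.61 and a standard error of 0.31 (limma adjusted p = 0.000243). It stood at 9.10, 13.2, 3.43 and 8.77 CPM in isolated, 209, 133, 107 and 153 CPM in paired and 291, 325, 275 and 106 CPM in octet libraries. All paired libraries lay far above the isolated ones, while octet replicate 4 lay just below every paired library. In pairs it had reached 86.7% of the fitted change. RNA815_16008.1, with a departure of 2.50 and a standard error of 0.29, had reached 89.6%: 5.11, 4.00, 1.42 and 2.19 CPM in isolated, 58.8, 33.3, 35.2 and 62.3 CPM in paired and 72.5, 95.1, 48.9 and 45.6 CPM in octet libraries. Paired and octet libraries of this transcript overlapped. RNA815_15432.3, at 85.6% of the fitted change in pairs, had a departure of 2.37 with a standard error of 0.30 (limma adjusted p = 0.000434), and all 3 transcripts of its number passed both tests.

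RNA815_2216.1 was the most abundant of the 8 steepest rises. Its level was 24.1, 24.3, 13.4 and 16.7 CPM in isolated, 224, 122, 176 and 318 CPM in paired and 547, 556, 308 and 453 CPM in octet libraries. Only paired replicate 4, at 318 CPM, reached into the octet range. Its slope was 1.39 with a standard error of 0.09, and its octet mean was 23.8-fold the isolated mean. The other 4 of the 8 were RNA815_29683.1, RNA815_19868.1, RNA815_8281.2 and RNA815_13234, with slopes of 1.57, 1.49, 1.46 and 1.42. In those 4 the paired level stood at 80.3%, 77.1%, 71.4% and 75.2% of the fitted change in that order, and each passed the departure test too.

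**Figure D4:**
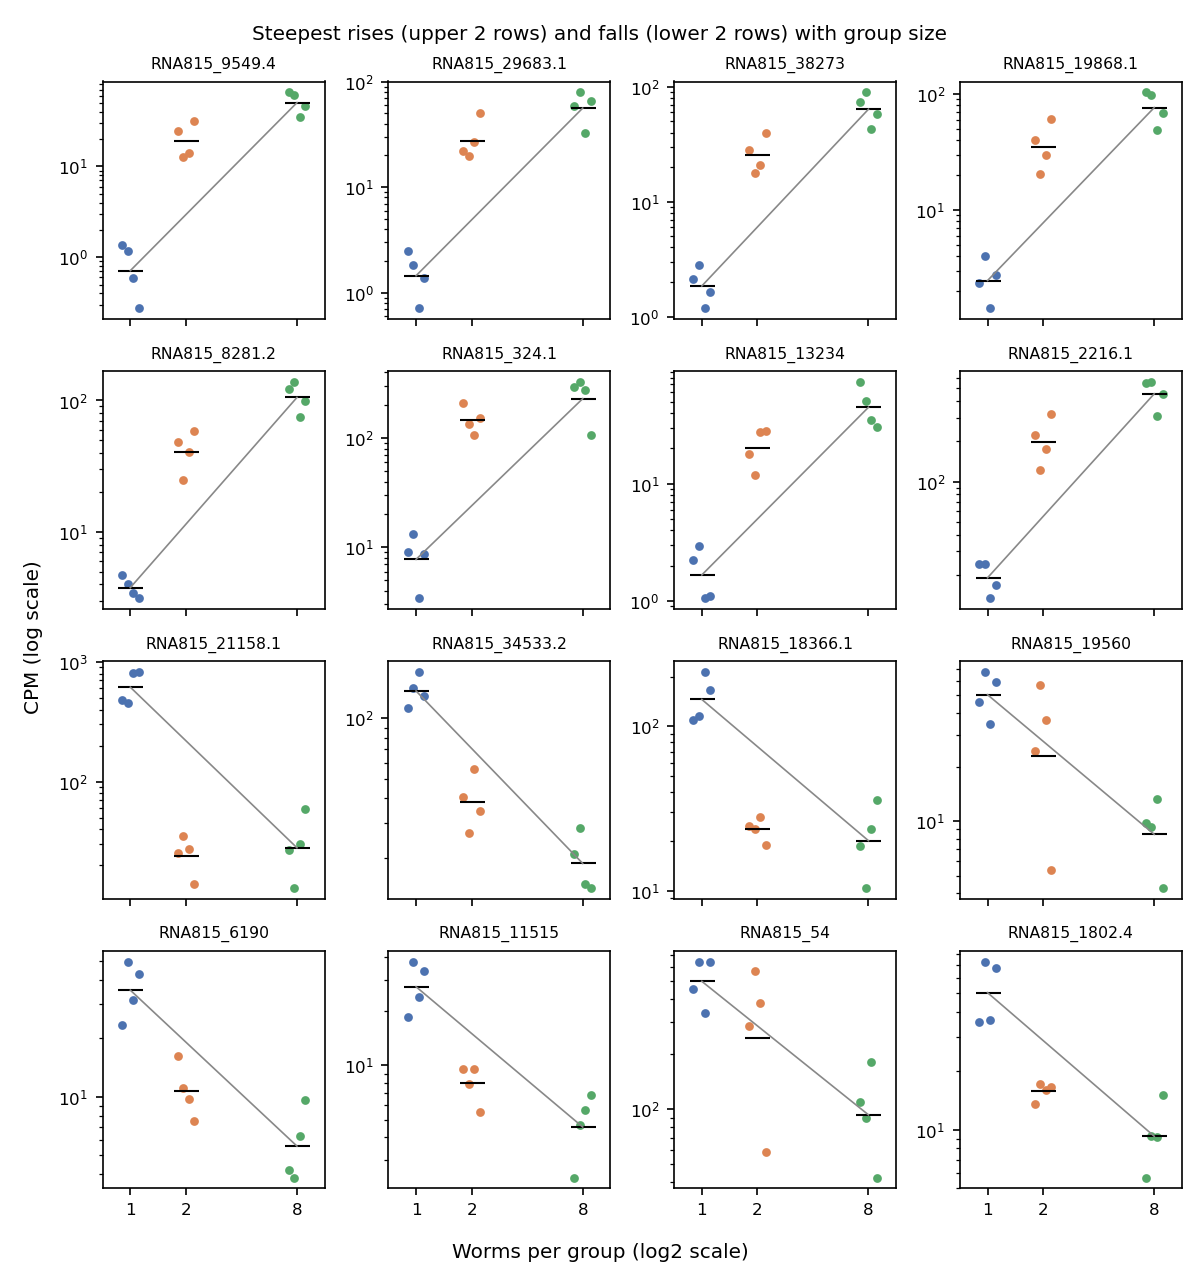
CPM (log axis) by library at 1, 2 and 8 worms (x axis, log2 scale) for the 8 steepest rises (upper 2 rows) and the 8 steepest falls (lower 2 rows) that met the naming rule; points are libraries, bars are geometric means and the grey line joins the isolated and octet means. In all 8 rises the paired bar stands well above the grey line, while among the falls its distance from the line varies, and in RNA815_54 and RNA815_19560 the paired libraries are widely spread.

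The 86 early rises moved together within groups as well as between them. Paired replicate 4 was the highest paired library in 68 of the 86 and paired replicate 2 the lowest in 72, against 36.3% and 29.2% of all tested transcripts. Octet replicate 2 was the highest octet library in 66 and octet replicate 3 the lowest in 61, against 21.6% and 30.9% of all tested transcripts. Isolated replicate 3 was the lowest isolated library in 58, against 32.5% of all tested transcripts. Their summed level was 2563, 2375, 1745 and 1847 CPM in isolated, 12080, 7891, 10370 and 15930 CPM in paired and 23070, 23740, 15100 and 19110 CPM in octet libraries. Paired replicate 4 thus lay above octet replicate 3. These 86 were chosen on the same libraries, so the shared order describes them and is no test. Some of the 86 share a number, such as 5 of RNA815_9549, and the levels of related transcripts depend on each other. The counts are therefore not of independent transcripts.

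Paired and isolated libraries did not overlap in any of the 86, while octet and paired libraries did not overlap in 23 (26.7%). Over all tested transcripts the shares were 7.91% and 7.79%. The paired mean reached or passed the octet mean in 4 of the 86, and the paired level ranged from 64.0% to 114% of the fitted change.

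Among the 17 early falls the median departure was -1.13, and the paired level stood at a median of 108.5% of the fitted change. In 11 of the 17 the paired mean was at or below the octet mean on the fitted scale. Octet and paired libraries overlapped in all 17, but they failed to overlap in only 7.79% of all tested transcripts. Paired and isolated libraries did not overlap in any of the 17, against 7.91% of all tested transcripts. The 17 were chosen on the same libraries, so these counts are no test. RNA815_21158.1, the steepest fall under the naming rule, stood at 476, 450, 809 and 827 CPM in isolated, 25.1, 34.7, 27.5 and 13.8 CPM in paired and 26.7, 12.9, 29.8 and 59.2 CPM in octet libraries. All of the fall lay between isolated and paired worms, with no further fall in octets. The departure was -3.18 with a standard error of 0.30 (limma adjusted p = 8.78e-05), the largest of all called departures, beside a slope of -1.26 with a standard error of 0.11.

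RNA815_18366.1 and RNA815_19279.2 had the same outline. RNA815_18366.1 stood at 110, 115, 215 and 167 CPM in isolated, 24.9, 23.9, 28.1 and 19.1 CPM in paired and 18.8, 10.4, 23.6 and 35.7 CPM in octet libraries, a departure of -1.66 with a standard error of 0.24 (limma adjusted p = 0.00154). RNA815_19279.2 averaged 101 ± 36.5 CPM in isolated pools, 15.5 ± 5.03 CPM in paired pools and 19.2 ± 8.32 CPM in octet pools (SD, n = 4 each), with a departure of -1.86 with a standard error of 0.30 (limma adjusted p = 0.00313). In both, paired and octet libraries overlapped, and all of them lay below every isolated library.

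In RNA815_35903 the lowest level was in pairs. It stood at 27.7, 32.2, 45.7 and 37.4 CPM in isolated, 8.6, 7.6, 11.2 and 8.11 CPM in paired and 23.5, 15.9, 10.7 and 17.4 CPM in octet libraries. Only octet replicate 3 overlapped with the paired libraries. Its slope was -0.25 with a standard error of 0.07 (limma adjusted p = 0.0148) and its departure -1.62 with a standard error of 0.20 (adjusted p = 0.000362).

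Related transcripts could differ in shape. RNA815_34533.1 stood at 447, 487, 543 and 423 CPM in isolated, 119, 90.2, 235 and 204 CPM in paired and 192, 238, 152 and 175 CPM in octet libraries. It was called for the departure, at -1.20 with a standard error of 0.20 (limma adjusted p = 0.00606), and that call was lost without paired replicate 1. RNA815_34533.2 stood at 113, 142, 171 and 129 CPM in isolated, 40.3, 26.8, 55.7 and 34.5 CPM in paired and 21.0, 28.2, 14.9 and 14.2 CPM in octet libraries. Its slope was the steeper, -0.89 with a standard error of 0.07 against -0.36 with a standard error of 0.08, and its departure of -0.90 did not pass the test (limma adjusted p = 0.0649). The difference between the 2 transcripts was not tested.

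RNA815_10216 alone had a called departure and no slope call. It stood at 35.8, 25.4, 27.2 and 30.7 CPM in isolated, 56.4, 51.5, 46.1 and 46.1 CPM in paired and 29.7, 23.6, 28.6 and 25.5 CPM in octet libraries. Pairs were above both other groups in every library, and octets and isolated worms overlapped. The departure was 0.80 with a standard error of 0.13 (limma adjusted p = 0.00286), and the slope was -0.10 with a standard error of 0.05 (adjusted p = 0.127).

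**Figure D5:**
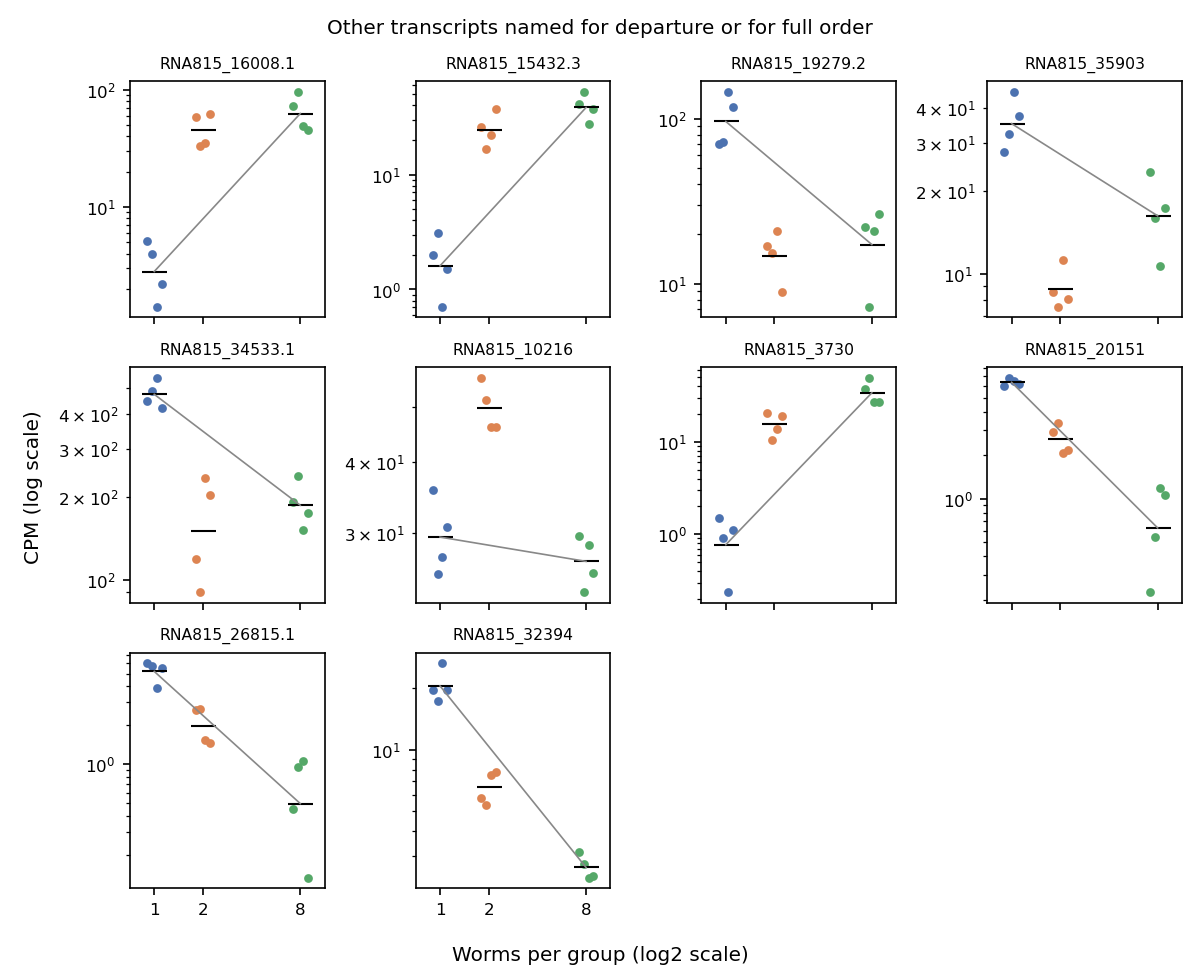
CPM (log axis) by library at 1, 2 and 8 worms (x axis, log2 scale) for the other transcripts named for their departure or for full order of the groups; points are libraries, bars geometric means, and the grey line joins the isolated and octet means. RNA815_10216 has its highest and RNA815_35903 its lowest level in pairs, while RNA815_20151 and RNA815_26815.1 follow the line closely.

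Full order, with every library of one group beyond every library of the next at both steps, was found in 325 rising (0.845%) and 115 falling (0.299%) transcripts. Of these, 323 and 112 had a slope call. After RNA815_9549.4, the steepest of these rises was RNA815_3730, with 1.5, 0.904, 0.237 and 1.1 CPM in isolated, 20.4, 10.5, 13.8 and 19.1 CPM in paired and 36.9, 49.0, 26.8 and 26.7 CPM in octet libraries. It also departed from the line, by 2.44 with a standard error of 0.37 (limma adjusted p = 0.00185). Its isolated values rest on only 2 to 12 reads each.

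The 3 steepest fully ordered falls included scarce transcripts. RNA815_20151 stood at 5.99, 6.84, 6.51 and 6.16 CPM in isolated, 2.90, 3.35, 2.07 and 2.17 CPM in paired and 0.227, 0.548, 1.18 and 1.07 CPM in octet libraries, the last from 2 to 10 reads each. The slope was -1.06 with a standard error of 0.14 (limma adjusted p = 4.13e-05), and the 95% interval of the departure ran from -0.72 to 0.31. RNA815_26815.1, at 5.26 ± 0.93 CPM in isolated, 2.06 ± 0.67 CPM in paired and 0.652 ± 0.44 CPM in octet libraries (SD, n = 4 each), had a departure interval from -0.89 to 0.33. These 2 intervals hold 0, yet they also reach departures of -0.72 and -0.89, so the shape is known only within those limits.

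RNA815_32394 was the most abundant of the 3. It stood at 19.6, 17.4, 26.5 and 19.7 CPM in isolated, 5.80, 5.36, 7.52 and 7.82 CPM in paired and 3.17, 2.74, 2.36 and 2.4 CPM in octet libraries. The slope was -0.93 with a standard error of 0.07 (limma adjusted p = 1.26e-07). The departure of -0.68, with a standard error of 0.17, did not pass the test (adjusted p = 0.16).

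The other steep falls differed in how far pairs spread. RNA815_6190, RNA815_11515 and RNA815_1802.4 had slopes of -0.83, -0.80 and -0.76 and paired levels at 63.8%, 67.7% and 68.5% of the fitted change, with no departure call. RNA815_54 stood at 455, 636, 338 and 642 CPM in isolated, 287, 569, 380 and 58.2 CPM in paired and 110, 89.2, 182 and 42.3 CPM in octet libraries. Its paired libraries covered nearly the whole range, from the isolated level down to paired replicate 4 within the octet range. RNA815_19560 was spread alike, with 34.8 to 67.4 CPM in isolated, 24.6, 57.0, 36.4 and 5.36 CPM in paired and 4.27 to 13.2 CPM in octet libraries. The slopes were -0.79 with a standard error of 0.16 for RNA815_54 and -0.83 with a standard error of 0.17 for RNA815_19560 (limma adjusted p = 0.00295 and 0.00271).

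Late changes, in which pairs stayed at the isolated level, did not pass the departure test with limma-voom. The transcripts below, chosen after their values were seen, lay on the isolated side of the line. After adjustment neither was near a called departure. In both, the paired mean lay beyond the isolated mean, away from octets. The paired level was at -29.7% of the fitted change in RNA815_23794 and -38.0% in RNA815_629.1. RNA815_23794 stood at 24.6, 24.3, 31.3 and 22.3 CPM in isolated, 22.1, 18.4, 22.3 and 25.3 CPM in paired and 47.6, 34.0, 42.2 and 47.3 CPM in octet libraries. Octets were above all other libraries, pairs and isolated worms overlapped, and the departure was -0.46 with a standard error of 0.14 (limma adjusted p = 0.445). RNA815_629.1 stood at 11.6, 17.2, 8.99 and 11.0 CPM in isolated, 17.3, 17.7, 12.1 and 14.3 CPM in paired and 5.10, 9.59, 7.79 and 3.61 CPM in octet libraries, with a departure of 0.68 and a standard error of 0.21 (adjusted p = 0.461). Here pairs were above octets in every library and overlapped with isolated worms.

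The scale of group size set how many departures were called. With group size itself (1, 2, 8) the line puts pairs at 14.3% of the change, and 239 transcripts departed from it, 221 of them slope calls with pairs on the octet side of that line and 1 on the isolated side. With equal steps (0, 1, 2) the line puts pairs at 50% of the change, and 12 departed, 11 of them slope calls with pairs on the octet side and 0 on the isolated side. On that scale an early and a late change have equal room, and RNA815_21158.1, RNA815_324.1, RNA815_16008.1, RNA815_15432.3, RNA815_35903 and RNA815_10216 passed among the transcripts named for their departure. Expression was in log2 CPM in every fit. RNA815_9549.4 averaged 0.85, 20.7 and 51.8 CPM in isolated, paired and octet libraries. Its paired level stood at 76.7% in log2, yet the larger part of its rise in CPM lay between 2 and 8 worms. RNA815_324.1 averaged 8.62, 151 and 249 CPM, with the larger part between 1 and 2 worms.

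Paired libraries were also placed on an axis that they took no part in choosing. In a fit to the 8 octet and isolated libraries alone, 8612 of 35963 transcripts (23.9%) differed (limma-voom), and each library was projected on the difference between those groups, with the isolated mean at 0 and the octet mean at 1. Paired libraries 1 to 4 lay at 0.469, 0.349, 0.534 and 0.747, with a mean of 0.525 ± 0.167 (SD, n = 4). All 4 lay between the highest isolated library, at 0.067, and the lowest octet library, at 0.808. The axis transcripts were called on those isolated and octet libraries, so the gap between these groups is partly set by that choice. On the rising transcripts alone the paired mean was 0.609 ± 0.12, and on the falling ones 0.41 ± 0.234. The isolated mean enters both the axis and the position, so the values are descriptions and the difference between rises and falls was not tested. The 4 joined libraries lay from -0.077 to 0.090 on the same axis.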

How the data were processed

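Reads came from TRIzol RNA of worm pools and a standard Illumina mRNA library protocol, per the labels' protocols. Bowtie 0.12.7 and RSEM 1.1.19 are named in the submitters' processing notes, and the assembly MLRNA110815 in the file header; settings are not given in the sources used here. The authors deposited estimated counts per transcript for 76437 transcripts, unscaled, with a decimal comma, other than whole numbers in 23.8% of cells. No count model was fitted; limma-voom was used.

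Counts of the 12 libraries were rounded. Transcripts needed 1.24 CPM (10 reads in the library of median size) in at least 4 libraries and 15 reads in all, which left 38462 with 98.6% to 99.1% of each library's reads. Scaling used TMM (trims of 30% and 5%), and limma 3.58.1 in R 4.3.3 fitted 3 group means (pseudocount 0.5 in log2 CPM, 9 residual and 10.1 prior degrees of freedom). Slope and departure contrasts were tested in that fit, two-sided, with Benjamini-Hochberg adjustment over all tested transcripts and a threshold of 0.05. Slopes understate changes of scarce transcripts. The 18 same-group pairs of libraries differed by more than sampling noise (chi-square per degree of freedom 3.05 to 25.2). Scripts were tested on simulated data.

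Named transcripts followed a rule: the 8 steepest rises and 8 steepest falls (slope call, mean log2 CPM of at least 3, no overlap of octet and isolated libraries), the 5 largest called departures each way, the 3 steepest fully ordered rises and falls, and up to 2 departures each way without a slope call, with 1 transcript per number in each list. The rule, groups and tests were chosen with earlier results of these data known. Sequences were not used here. Alternatives covered scaling, filters, rounding, limma-trend, library weights, all 16 libraries, a replicate block, a slope-only model, other scales of group size, a threshold of 0.01, summing over shared numbers and leaving out libraries.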

Additional observations from a re-analysis of the deposited data

Results flagged for a closer look

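Of 109 groups of 4 values tested (reads, library shares, axis positions and CPM of the named transcripts), 1 held a value far from the other 3 by Dixon's criterion, where chance gives about 1 in 20. Octet replicate 1 held 10112451 reads, and the other octet libraries held 7717578, 7843584 and 7871891. Without that library the slope calls were 4330.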

How the results depend on the processing

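All 20 named slopes kept their direction and their call under 26 alternatives (520 of 520 values), which leave out the threshold of 0.01 and the sum over shared numbers. The 11 named departures kept their direction in those alternatives that test a departure, and their call in 269 of 275 values. The named transcripts were picked for steep slopes or large departures in these same libraries, so this says little about the 7760 slope calls. With equal steps the call was lost in RNA815_9549.4, RNA815_29683.1, RNA815_19279.2, RNA815_18366.1 and RNA815_34533.1, and in RNA815_34533.1 also without paired replicate 1. Equal steps left 12 departure calls, 11 of them slope calls on the octet side of the line, and group size itself gave 239, with 221 on the octet side and 1 on the isolated side. A quality weight per library gave 12098 slope calls, 5595 of them falling, 10488 F-test calls and 191 departure calls, of which 159 were slope calls on the octet side and 5 on the isolated side. At an adjusted p under 0.01 there were 3081 slope calls, 2178 rising and 903 falling, and 1740 F-test calls. Without paired replicate 4 and isolated replicate 3 together there were 5277 falls and 9316 F-test calls. Leaving out 1 library at a time, slope calls ran from 4330 to 10035, rises from 2948 to 5819, falls from 1288 to 4216, F-test calls from 2536 to 8144, departure calls from 80 to 131, those on the octet side from 79 to 129, those on the isolated side from 0 to 1, and the mean paired position from 0.451 to 0.583. The cause of these shifts was not tested. Running numbers in the column headers place libraries of the same replicate number side by side, and the labels name no batch. Same-numbered libraries correlated from -0.14 to 0.351 (median 0.026) in their deviations from group means. Libraries of different numbers correlated from -0.454 to 0.383 (median -0.0037). Of 12 libraries, 5 correlated best with their own number. These values do not settle whether replicate numbers pair the libraries. The replicate block gave 8423 slope calls and 134 departure calls. Depth limits the scarce transcripts, with a median slope half-width of 0.24 in the least abundant 12821, and 4 pools a group limit the test of shape.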

Other observations

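Within the number RNA815_80, which holds the most abundant transcript of the libraries, related transcripts went opposite ways; these were picked after their values were seen. RNA815_80.4 rose early, at 26.1, 18.2, 14.4 and 16.3 CPM in isolated, 207, 101, 186 and 322 CPM in paired and 412, 511, 316 and 410 CPM in octet libraries, with a slope of 1.36 and a standard error of 0.09 (limma adjusted p = 1.35e-08). RNA815_80.3 fell, at 27.6 ± 7.64 CPM in isolated, 14.0 ± 2.54 CPM in paired and 8.93 ± 2.37 CPM in octet pools (SD, n = 4 each), with a slope of -0.51 and a standard error of 0.08 (limma adjusted p = 0.00019). For RNA815_80.1 itself the slope was -0.17 (standard error 0.07, limma adjusted p = 0.109), which missed the threshold. Such a split is rare here: of 541 numbers with at least 2 slope calls, 526 had all calls in 1 direction and 15 had calls in both.

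RNA815_10311 is another of the 15. RNA815_10311.2 stood at 128 CPM in isolated, 325 CPM in paired and 475 CPM in octet libraries (slope 0.58, standard error 0.05, limma adjusted p = 1.06e-07), while RNA815_10311.1 stood at 54.0, 22.0 and 15.4 CPM in the same groups (slope -0.55, standard error 0.06, limma adjusted p = 5.57e-06). Reads of such transcripts were divided by estimation, and how far that division shapes the split was not tested.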
